A study of Mus musculus with 12 samples.

Results

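The kainate receptor subunits are the 5 genes Grik1, Grik2, Grik3, Grik4 and Grik5, which encode the proteins GluK1 to GluK5. They were taken from the counts by their Ensembl identifiers, matched to symbols in Gencode vM1 on mm9, and they are 5 of the 37310 genes counted. All 5 had counts in all 12 libraries.

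Kainate receptors are glutamate-gated cation channels that sit both at synapses and on axon terminals, where they pass slow excitatory currents and adjust transmitter release. GluK1, GluK2 and GluK3 can form channels on their own, whereas GluK4 and GluK5 bind kainate with high affinity and need a partner from the first class to form a channel. In hippocampus, GluK2 with GluK4 and GluK5 is known for the mossy fibre synapse onto CA3 pyramidal neurons, and GluK1 is known from GABA interneurons. The transmembrane proteins Neto1 and Neto2 are their auxiliary subunits, and RNA editing by ADAR enzymes changes a codon of the channel pore in Grik1 and Grik2.

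The study asked which mRNAs depend on FosB in ventral hippocampus (vHPC) neurons that project to nucleus accumbens (NAc), using translating ribosome affinity purification (TRAP). All mice were C57BL/6, carried the Cre-dependent Rosa26 eGFP-L10a allele (a large-subunit ribosomal protein fused to GFP) and received retrograde HSV-Cre in NAc 3 weeks before dissection. FosB KO mice also carried the FosB fl/fl alleles, and WT mice did not, so Cre was present in both genotypes. Punches of vHPC were pooled, from 3 mice per pool by the sample source and 3 to 4 by the protocol, and each of the 6 pools gave a TRAP library of mRNA on GFP-tagged ribosomes and an input library of the whole punch.

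There were thus 4 groups of 3 libraries: TRAP and input libraries of WT pools 1 to 3, and of KO pools 2 to 4. No age or further treatment was given in the labels. In this model the vector set where FosB was lost: only cells that took up HSV-Cre could recombine, and these include NAc-projecting cells outside vHPC. Fosb itself was not absent from KO libraries, at 18.8 to 29.1 CPM (counts scaled to a common library total) in KO TRAP against 32.6 to 45.2 CPM in WT TRAP, and at 14.9 to 16.97 CPM in KO input against 22.2 to 30.1 CPM in WT input. The groups did not overlap in either fraction, as for 6.87% of all genes tested in TRAP and 4.03% in input that were lower in KO without overlap. These counts cover all exons of Fosb, those that the floxed alleles keep included. The paper states that exons 2 and 3 are removed, and it describes FosB expression in the KO TRAP reads as nearly absent. Depth ran from 3416030 to 5614089 counts on genes, so that 3 counts, the least taken here as detected, stood at 0.534 to 0.878 CPM. Mitochondrial genome transcripts took 0.0305% to 9.05% of the counts, with all TRAP libraries below all input libraries. The labelled cells were checked by their markers: of those of glutamate neurons, 5 of 6 were higher in TRAP than in input at an adjusted p under 0.05 and none was lower, beside 19.6% of all genes higher and 22.5% lower. Of the CA1 and subiculum markers, Fibcd1, Mpped1 and Dcn were higher in TRAP, Fn1 was lower (passing the filter only through input), Wfs1 did not pass the test and Pou3f1 was at 0 in all libraries.

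The sequence shows how close the members are and why their reads can be told apart. The lines give, for each subunit, 60 bases of the coding strand across the pore loop, and the capitals mark the codon of the Q/R site, a glutamine codon in the genome for all 5 and the one that is edited in Grik1 and Grik2 RNA.
Grik1: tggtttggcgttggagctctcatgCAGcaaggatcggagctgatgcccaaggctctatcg
Grik2: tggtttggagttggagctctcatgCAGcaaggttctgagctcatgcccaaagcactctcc
Grik3: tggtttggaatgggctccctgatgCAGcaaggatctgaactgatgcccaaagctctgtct
Grik4: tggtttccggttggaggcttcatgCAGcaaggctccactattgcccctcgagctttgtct
Grik5: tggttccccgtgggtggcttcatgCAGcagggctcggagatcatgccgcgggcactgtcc
These 60 bases differed at 8 positions between Grik1 and Grik2, the closest pair, and at 24 between Grik3 and Grik4, the most distant. In Grik1, Grik2 and Grik3 the stretch crosses an exon junction after base 31, and in Grik4 and Grik5 it lies within 1 exon. Over the aligned coding sequences, identity ran from 59.7% (Grik2 and Grik5) to 73.5% (Grik1 and Grik2), and Grik4 and Grik5 shared 72.3%. Counts per gene carry no information on editing, which was not measured here.

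On mm9, Grik1 (ENSMUSG00000022935.7) lies at chr16:87896441-88289947 on the minus strand, with the pore codon in exon 11 of 16 at chr16:87940787-87940789. Grik2 (ENSMUSG00000056073.7) lies at chr10:48819266-49508572 on the minus strand, with the codon in exon 13 of 17 at chr10:48964135-48964137. Grik3 (ENSMUSG00000001985.8) lies at chr4:125167944-125391417 on the plus strand, with the codon in exon 12 of 16 at chr4:125368451-125368453. Grik4 (ENSMUSG00000032017.7) lies at chr9:42326218-42752576 on the minus strand, with the codon in exon 16 of 21 at chr9:42355706-42355708. Grik5 (ENSMUSG00000003378.8) lies at chr7:25794872-25857388 on the minus strand, with the codon in exon 15 of 20 at chr7:25807516-25807518, and is 5.90 Mb from Fosb on the same chromosome. No annotated exon of another gene shared a base with the exons of the 5, so the strand setting of the counting, which is not given in the sources used here, does not divide their reads with a neighbour. Of the 75-base stretches of their exons, 1 of 319 in Grik3 and none in the other 4 subunits had a further place in the genome at up to 2 mismatches.

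The exons of the 5 genes differ in length, 3332 bases in Grik1, 8273 in Grik2, 8979 in Grik3, 5913 in Grik4 and 3836 in Grik5, as the union of all annotated exons. Part of this is untranslated: the longest annotated 3′ UTR has 6082 bases in Grik3 and 299 in Grik1. Levels of different subunits are therefore compared below as CPM per kilobase of exon, and levels of 1 subunit across libraries as CPM.

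Per kilobase, Grik5 was the most abundant kainate subunit mRNA in each of the 12 libraries. Its level was 27.2 to 38.3 CPM per kb in TRAP and 27.5 to 36.3 CPM per kb in input, with means at the 85.2 and 87.1 percentile of the 13214 genes compared. With all exons as the length, Grik3 came next in each library, at 3.55 to 4.78 CPM per kb in TRAP and 6.01 to 8.27 CPM per kb in input. The order of Grik2 and Grik4 was not settled: per kb, Grik2 was above Grik4 in 3 of 6 TRAP libraries and in 4 of 6 input libraries. Grik1 was the lowest per kb in all 6 TRAP libraries, at 0.364 to 1.16 CPM per kb. In input it stood at 2.17 to 4.16 CPM per kb, above Grik4 in 2 of 6 libraries and above Grik2 in 1 of 6. With the longest transcript as the length, Grik5 stayed above the other subunits in all 12 libraries, but Grik2 was above Grik3 in 3 of 6 libraries of each fraction and above Grik4 in 5 of 6 TRAP and 6 of 6 input libraries. On that length Grik4 was above Grik1 in 2 of 6 input libraries. The place of Grik2, and the order of Grik1 and Grik4 in input, thus depended on the length chosen, whereas under both lengths Grik3 was above Grik4 and Grik1 in all 12 libraries and Grik1 was the lowest in all TRAP libraries.

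As a share of the summed per-kb level of the 5 genes, Grik5 made up 72.3% to 81.0% in TRAP (median 77.0%) and 62.1% to 69.6% in input (median 64.1%), and these ranges did not overlap. Grik1 made up a median of 1.43% in TRAP and 6.11% in input, Grik2 5.50% and 8.04%, Grik3 10.4% and 14.6%, and Grik4 5.79% and 6.70%. The high-affinity subunits Grik4 and Grik5 together took 78.4% to 87.4% in TRAP and 69.1% to 76.0% in input. The summed level itself was 36.0 to 47.2 CPM per kb in TRAP and 43.0 to 56.1 CPM per kb in input. These shares are of mRNA and say nothing of receptor protein, and they depend on the length used: with the longest transcript in place of all exons, the mean share of Grik2 was 8.99% in TRAP and 13.2% in input, against 5.45% and 8.23%.

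**Figure D1:**
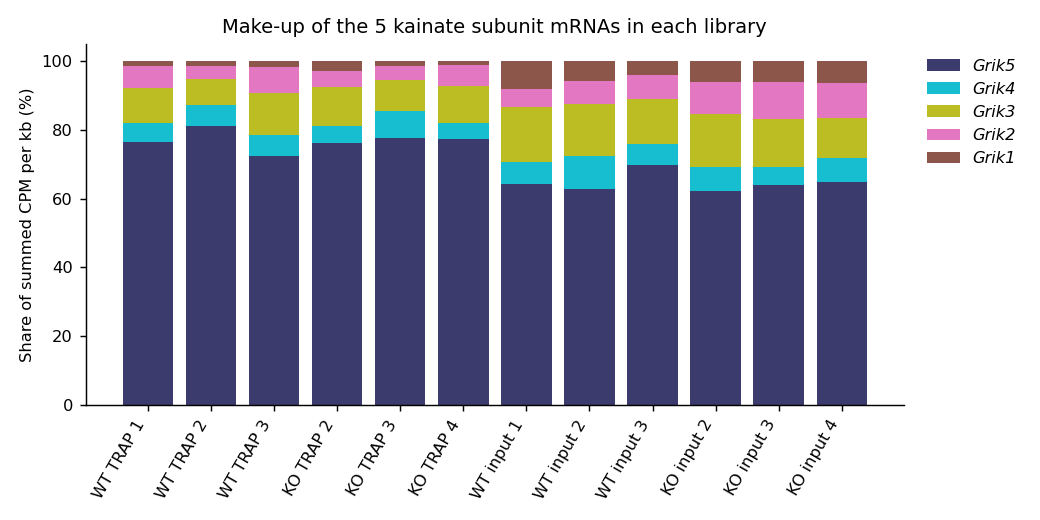
Share of each kainate subunit in the summed CPM per kb of exon (vertical axis, percent) in each of the 12 libraries (horizontal axis); each bar is 1 library and sums to 100%. Grik5 fills most of each bar, and the Grik1 segment is a median of 1.43% in TRAP and 6.11% in input.

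The comparison of TRAP with input asks which mRNAs are more or less frequent on the tagged ribosomes of NAc-projecting cells than in the whole tissue of the same pools. Over both genotypes, Grik1, Grik2, Grik3 and Grik4 were called lower in TRAP by edgeR's quasi-likelihood test (Benjamini-Hochberg adjusted p under 0.05) and none was called higher, where 22.5% of all 13214 genes tested were called lower and 19.6% higher. In WT alone 2 of 5 were called lower (Grik1 and Grik3, with 13.1% of all genes), and in KO alone 3 of 5 (with Grik2, and 15.9% of all genes). Grik1 passed the filter on low counts only through the input libraries, where it was high, so its call is not independent of the filter. Of the 4 subunits that passed within TRAP alone, 3 were called lower. The log2 ratios of these 4 were spread widely, at -0.90 (Grik2), -0.81 (Grik3), -0.57 (Grik4) and -0.07 (Grik5), beside a median of -0.01 for all genes tested. Grik1 was at -2.22. In such bulk samples, fewer cells of a type and less mRNA per cell cannot be told apart.

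Among the subunits that can form channels alone, Grik1 had the lowest TRAP ratio. Its level was 2.13, 2.16 and 2.13 CPM in WT TRAP pools 1, 2 and 3, and 3.88, 1.96 and 1.21 CPM in KO TRAP pools 2, 3 and 4. In input it was 13.9, 10.1 and 7.22 CPM in WT and 11.1, 8.66 and 11.8 CPM in KO. All TRAP values lay below all input values, as for 12.5% of all genes tested, and the near identity of the 3 WT TRAP values is closer than counting allows one to read: they rest on 12, 9 and 8 counts, and the first alone has an exact Poisson 95% interval of 1.10 to 3.73 CPM, which covers counting error only. Since Grik1 entered the fit only through its input counts, its ratio is given as a description: the log2 ratio of TRAP to input was -2.22 ± 0.32 over both genotypes (SE), -2.26 in WT and -2.18 in KO. Within pools, log2(CPM + 0.5) was lower in TRAP in 6 of 6 pools, with log2 ratios from -2.85 to -1.40. Of all genes tested, 20.2% were lower in 6 of 6 pools.

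Grik2, which encodes the subunit of the mossy fibre receptor, was at 23.8, 14.6 and 23.2 CPM in WT TRAP and at 16.3, 14.0 and 18.7 CPM in KO TRAP. Its input levels were 23.1, 29.9 and 29.1 CPM in WT and 41.2, 38.8 and 47.7 CPM in KO. In KO the TRAP values lay below the input values, as for 21.8% of all genes tested, while in WT they overlapped, since the TRAP libraries of pools 1 and 3 reached the level of the WT input library of pool 1. The log2 ratio over both genotypes was -0.90 ± 0.15 (SE, adjusted p = 2.46e-05). It was -1.39 ± 0.19 in KO (adjusted p = 9.10e-06), and in WT it was -0.42 ± 0.24 with an adjusted p of 0.223. Leaving out a pool moved the WT ratio over -0.66 to -0.17. The pool values were 0.04, -1.01 and -0.32 in WT and -1.31, -1.44 and -1.33 in KO, lower in TRAP in 5 of 6 pools (exact sign-flip p = 0.0625).

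Grik3, a subunit with low sensitivity to glutamate that can act at presynaptic sites, gave the most even ratios of TRAP to input over the pools (SD 0.21 on the log2 scale). It was at 41.3, 31.8 and 41.8 CPM in WT TRAP and at 42.9, 33.3 and 34.4 CPM in KO TRAP. Its input levels were 74.3, 72.4 and 61.3 CPM in WT and 74.2, 53.9 and 59.0 CPM in KO, so that all TRAP values lay below all input values, as for 12.5% of all genes. The log2 ratio was -0.81 ± 0.12 over both genotypes (SE, adjusted p = 3.43e-06), -0.86 in WT (adjusted p = 0.00124) and -0.77 in KO (adjusted p = 0.00110). Every pool was lower in TRAP, with log2 ratios from -1.17 to -0.55, as for 20.2% of all genes, and an exact sign-flip test over the pools gave p = 0.03125, the smallest that 6 pools allow.

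Of the high-affinity subunits, Grik4 was lower in TRAP by a narrow margin. It was at 14.6, 17.7 and 13.6 CPM in WT TRAP, 11.9, 18.6 and 9.94 CPM in KO TRAP, 19.9, 29.7 and 19.5 CPM in WT input and 22.4, 13.3 and 23.0 CPM in KO input. The WT fractions did not overlap, with TRAP lower as for 20.1% of all genes tested, whereas in KO pool 3 the order turned, with TRAP above input by 0.47 on the log2 scale. The log2 ratio was -0.57 ± 0.19 over both genotypes (SE, adjusted p = 0.0190). It missed the threshold in each genotype alone, at -0.60 in WT (adjusted p = 0.1002) and -0.54 in KO (adjusted p = 0.152), and in the exact sign-flip test (p = 0.09375, lower in 5 of 6 pools). The call over both genotypes was lost without WT pool 2 (log2 ratio -0.51), without KO pool 2 (-0.47) and without KO pool 4 (-0.39). Without KO pool 3, Grik4 was instead called lower in KO alone, at -1.06 (adjusted p = 0.00746), whereas the KO ratio was -0.36 without KO pool 2 (adjusted p = 0.493) and -0.23 without KO pool 4 (adjusted p = 0.719).

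Grik5, the most abundant subunit, gave values in TRAP and input that overlapped throughout. It was at 133, 147 and 104 CPM in WT TRAP, 122, 122 and 107 CPM in KO TRAP, 129, 128 and 139 CPM in WT input and 128, 105 and 139 CPM in KO input. Its log2 ratio was -0.07 ± 0.09 over both genotypes (SE, adjusted p = 0.553), with a 95% interval of -0.26 to 0.11. TRAP was below input in 3 of 6 pools. The interval leaves room for a small difference in either direction.

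**Figure D2:**
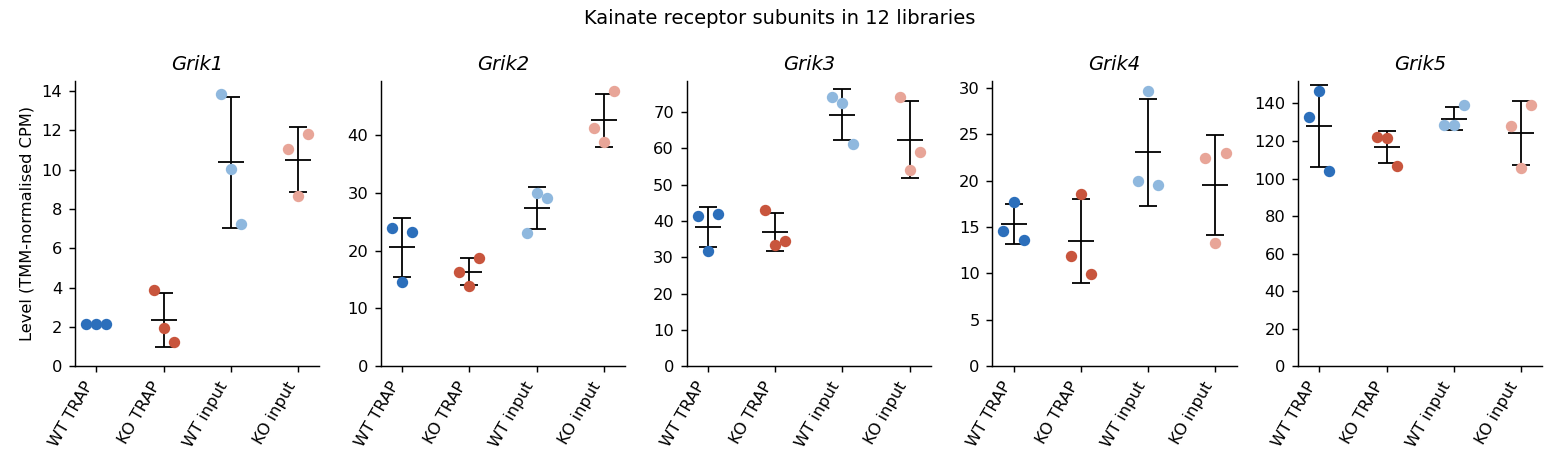
TMM-normalised CPM (vertical axes, each from 0) of the 5 kainate subunits in TRAP and input libraries of WT and KO mice; points are libraries, horizontal bars the mean of 3 and whiskers 1 SD. Grik1 and Grik3 are lower in all TRAP than in all input libraries, Grik5 overlaps throughout, and Grik2 in KO input, at 38.8 to 47.7 CPM, lies above the other 9 libraries.

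The ratios of the subunits can be ordered within pools, which share a punch and a preparation. The log2 ratio of Grik1 was below that of each other subunit in 6 of 6 pools, although against Grik2 the gap was as small as 0.09 in 1 pool. Because Grik1 passed the filter only through its input counts, its place in this order is a description. Grik3 was below Grik5 in 6 of 6 pools, and Grik2 and Grik4 were below Grik5 in 5 of 6. Neighbours in the middle were not separated: Grik2 was below Grik3 in 3 of 6 pools and below Grik4 in 4 of 6.

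**Figure D3:**
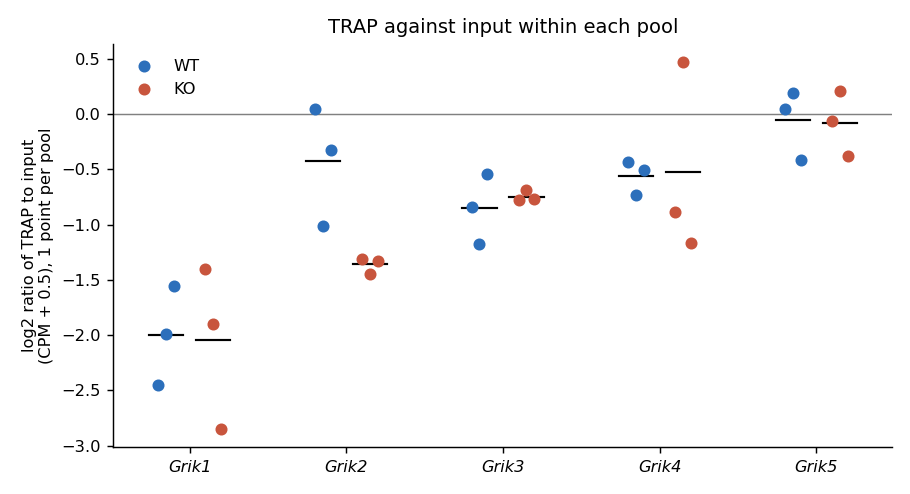
Log2 ratio of TRAP to input, from CPM + 0.5, for each kainate subunit (horizontal axis) with 1 point per pool and black bars at the mean of the 3 pools of a genotype. Grik1 spans -2.85 to -1.40, Grik5 lies around 0, and the Grik2 points run from -1.44 to -1.31 in KO and from -1.01 to 0.04 in WT.

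Markers of other cell types differed between the fractions as well. Of 12 GABA neuron markers, 10 were lower in TRAP and none higher (9 of the 11 that passed the filter within TRAP, all but Vip), with a median log2 ratio of -1.72 and a summed level of 222 to 693 CPM in TRAP against 977 to 1156 CPM in input. None of the 12 was at 0 in all libraries of a fraction. The ratio of Grik1, -2.22, lay within the range of these markers (-4.73 to -0.49). The ratios of the other subunits, at -0.90 and above, lay in the upper end of that range or above it. Markers of other lists had ratios similar to that of Grik1. Trpc6 of the CA2, CA3 and dentate gyrus list was at -2.22 and the oligodendrocyte marker Cnp at -2.36. Among astrocyte markers, S100b was at -2.25 and Slc1a2 at -2.37. Among the TRAP libraries the GABA marker sum was 491, 357 and 322 CPM in WT pools 1, 2 and 3 and 693, 222 and 227 CPM in KO pools 2, 3 and 4. KO pool 2 had the highest value of both this sum and Grik1, at 14 Grik1 counts, and without that pool the Grik1 ratio over both genotypes was -2.46. In WT TRAP the sum fell from 491 to 322 CPM over the pools while Grik1 stayed at 2.13 to 2.16 CPM. A link between the sum and Grik1 was not tested.

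Most glial markers were lower in TRAP as well. All 8 astrocyte markers were called lower in TRAP (median log2 ratio -3.02), and all 8 passed the filter within TRAP. Of the oligodendrocyte markers, 4 passed the filter within TRAP and all 4 were lower. Of the oligodendrocyte precursor markers, 4 passed within TRAP, of which 3 were lower and Cspg4 was higher at 0.95. None of the 7 microglia markers passed within TRAP, where their summed level was 4.31 to 9.07 CPM against 58.7 to 109 CPM in input. The precursor sum was 20.2 to 53.2 CPM in TRAP and 157 to 191 CPM in input. Of 5 endothelial markers, 1 passed the filter within TRAP and was not called, and Tek was at 0 in all TRAP libraries. Of the markers of CA2, CA3 and dentate gyrus, where kainate receptors are known to be dense, 4 of 7 tested were lower in TRAP (Amigo2, Prox1, C1ql2 and Trpc6) and Rgs14 was higher. Their summed level was 127 to 142 CPM in TRAP and 164 to 242 CPM in input. The part of these cell types in the subunits' ratios was not tested.

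**Figure D4:**
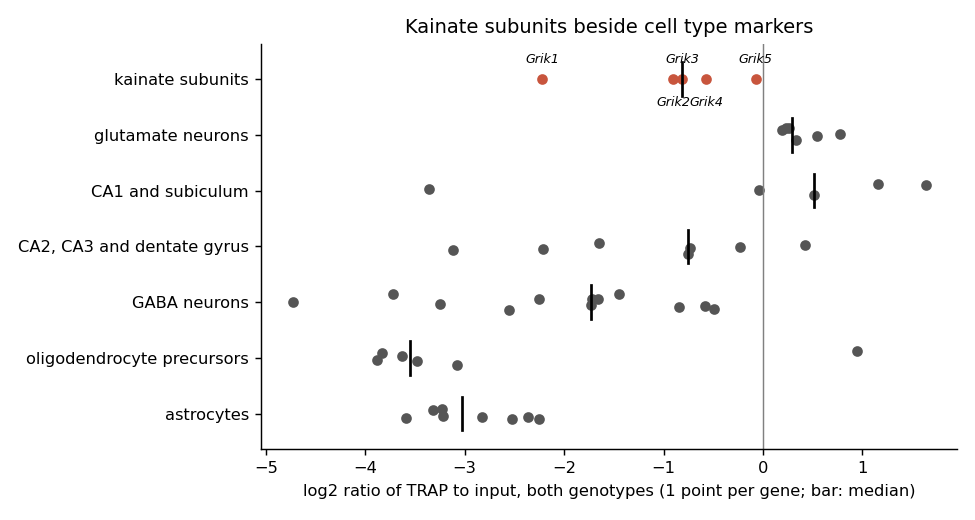
Log2 ratio of TRAP to input over both genotypes (horizontal axis) for the 5 kainate subunits and the members of 6 marker lists; points are genes and vertical bars list medians. Grik1 at -2.22 lies within the range of the GABA neuron markers (median -1.72) and beside members of other lists. Among these are Trpc6 at -2.22 and the astrocyte markers S100b at -2.25 and Slc1a2 at -2.37. Grik5 at -0.07 lies between the medians of the GABA and the glutamate neuron markers, the latter 0.30.

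The auxiliary subunits were lower in TRAP as well. Neto1 was at 88.8, 94.1 and 71.7 CPM in WT TRAP, 82.3, 105 and 88.5 CPM in KO TRAP, 107, 154 and 129 CPM in WT input and 119, 131 and 147 CPM in KO input, with all TRAP values below all input values, as for 12.5% of all genes. Its log2 ratio was -0.58 ± 0.10 (SE, adjusted p = 3.27e-05). Neto2 was at 10.3, 8.86 and 15.2 CPM in WT TRAP, 18.3, 22.5 and 13.3 CPM in KO TRAP, 26.0, 31.3 and 24.5 CPM in WT input and 33.2, 34.2 and 27.1 CPM in KO input. The fractions did not overlap for Neto2 either, and its log2 ratio was -1.04 ± 0.17 (SE, adjusted p = 1.64e-05).

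Over the 12 genes listed for auxiliary subunits, scaffolds, secreted ligands and editing, 5 were called lower and 3 higher in TRAP, with a median log2 ratio of -0.13, beside the 22.5% lower and 19.6% higher of all genes. The lowest were C1ql2, a secreted C1q-like ligand of mossy fibre kainate receptors, at -1.65, and Neto2. The highest were Adar, which encodes an adenosine deaminase acting on RNA, at 0.68, and C1ql3, a C1q-like protein related to C1ql2, at 0.41. C1ql2 rests on low levels, 1.22 to 4.53 CPM in TRAP and 6.07 to 14.9 CPM in input, and it also stands on the list of dentate gyrus markers.

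The comparison of KO with WT asks whether kainate subunit mRNAs differ where FosB was removed. None of the 4 subunits tested in TRAP and none of the 5 tested in input passed an adjusted p of 0.05 by edgeR's quasi-likelihood test, where 0.0682% and 0.0312% of all genes did. At an unadjusted p under 0.05 there was none of 4 in TRAP and 1 of 5 in input (Grik2), beside 6.05% and 2.89% of all genes, and DESeq2 also called none after adjustment. Grik1 fell below the filter on low counts in TRAP, where it had 5 to 14 counts per library, and without the filter its log2 difference was 0.14 (adjusted p = 0.986 in edgeR's test).

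In TRAP the 4 subunits tested had log2 differences, KO against WT, of -0.32 for Grik2 (95% interval -0.87 to 0.22), -0.04 for Grik3 (-0.42 to 0.33), -0.17 for Grik4 (-0.78 to 0.45) and -0.12 for Grik5 (-0.38 to 0.14). The groups overlapped for each of them, whereas 12.1% of all genes tested did not overlap. The direction for Grik3 turned without WT pool 1, WT pool 3 or KO pool 3, and that for Grik4 turned without KO pool 4 (0.01). With pool numbers as a block, which pairs KO and WT pools of different mice, Grik3 was at 0.07. Leaving out a pool moved Grik2 over -0.51 to -0.18 and Grik5 over -0.24 to -0.012, with no turn of direction. The 95% intervals bound the difference for Grik5 most narrowly and leave room for a considerable one in Grik2 and Grik4.

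In input, Grik2 was the subunit that stood apart. Its 3 KO values (41.2, 38.8 and 47.7 CPM) lay above its 3 WT values (23.1, 29.9 and 29.1 CPM), as for 4.36% of all genes tested, and 8.4% did not overlap in either direction. The log2 difference was 0.63 ± 0.18 (SE, 95% interval 0.26 to 1.00), a fold of 1.55, but over all 12816 genes its adjusted p was 1.00 in edgeR's test and the exact permutation test gave p = 0.10, the smallest that 3 against 3 allow. The difference was 0.53 to 0.69 when each pool was left out in turn, with adjusted p from 0.465 to 1.00 over all alternatives. Pool numbers as a block, which pair different mice across genotypes, gave 0.44. Input is the whole punch, in which cells without Cre are included.

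The CA2, CA3 and dentate gyrus markers were summed in the same input libraries, at 164, 186 and 168 CPM in WT and 172, 242 and 215 CPM in KO. None of the 7 tested was called between KO and WT, and their log2 differences ranged from -0.25 to 1.46 with a median of 0.10. They were 1.46 for Dsp, 0.68 for C1ql2, 0.64 for Prox1, 0.10 for Rgs14, 0.07 for Bok, -0.04 for Trpc6 and -0.25 for Amigo2. The part of the dissected field in the Grik2 difference was not tested.

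The other subunits differed less between the genotypes in input, by 0.03 for Grik1 (95% interval -0.64 to 0.69), -0.16 for Grik3 (-0.48 to 0.17), -0.24 for Grik4 (-0.77 to 0.28) and -0.09 for Grik5 (-0.36 to 0.17) on the log2 scale. All overlapped between KO and WT. Leaving out 1 pool turned the direction for Grik1 (without WT pool 3, KO pool 2 or KO pool 4) and for Grik5 (without KO pool 3). It moved Grik3 over -0.30 to -0.060 and Grik4 over -0.38 to -0.018.

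**Figure D5:**
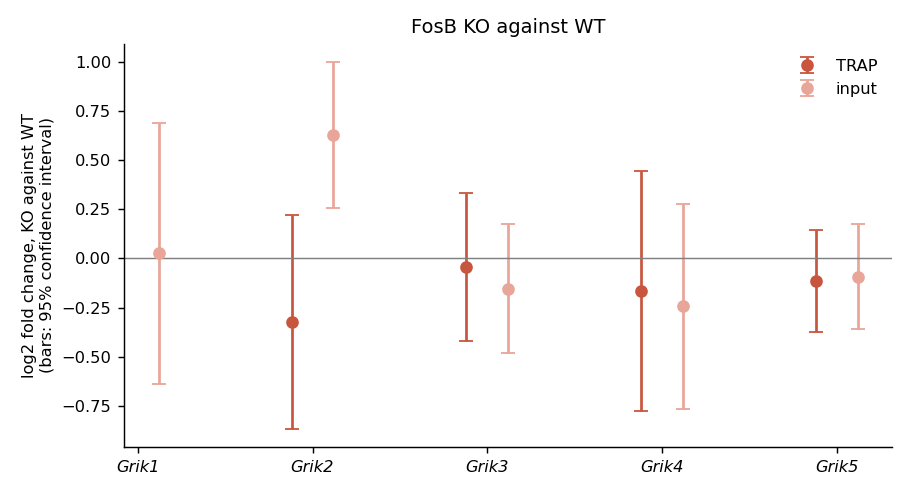
Log2 fold change of KO against WT (vertical axis) with its 95% confidence interval for each kainate subunit in TRAP and in input, from 3 libraries per group. All intervals cover 0 except that of Grik2 in input, 0.26 to 1.00 before any adjustment for the number of genes; Grik1 has no TRAP value because it fell below the filter on low counts.

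The difference of the KO effect between TRAP and input was tested as an interaction over all 12 libraries. For Grik2 it was -0.95 ± 0.30 on the log2 scale (SE, 95% interval -1.57 to -0.32), which combines the higher KO level in input with the lower KO mean in TRAP. The adjusted p in edgeR's test was 1.00, and the unadjusted p under 0.05 that Grik2 had was shared by 2.71% of all genes, with 0.00757% passing after adjustment. The interactions of the other 4 subunits lay between -0.02 and 0.11, with unadjusted p from 0.641 to 0.904, and several of these turned direction when a pool was left out.

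Neto1 and Neto2 were not called between KO and WT, nor was any other of the 12 partner genes. Neto2 in TRAP had the largest TRAP difference of the list, 0.67 ± 0.30 on the log2 scale (95% interval 0.05 to 1.30), and its adjusted p was 0.798 in edgeR's test. Its KO and WT values in TRAP overlapped, because KO pool 4 (13.3 CPM) was below WT pool 3 (15.2 CPM). Neto1 differed by 0.13 in TRAP and 0.03 in input.

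Genes with profiles most like each subunit over the 12 libraries were found from the root mean square (RMS) difference of log2(CPM + 0.5), centred on the mean of each gene, among 13213 other genes. Closest to Grik1 were Lhx6, a transcription factor of GABA interneurons from the medial ganglionic eminence (RMS difference 0.268), and Pcdh15, a protocadherin (0.291). The closest to Grik2 were Rbms1, an RNA-binding protein (0.223), and Oplah, 5-oxoprolinase (0.251). Those for Grik3 were Arhgap23 (0.139), and Cspg5, neuroglycan C (0.162), and those for Grik4 were Psme4, a proteasome activator (0.191), and Arl5b, a small GTPase (0.215). Grik5, with the flattest profile, was closest to Pphln1, periphilin (0.0841), and Dab2ip, a Ras GTPase-activating protein (0.0971). The median gene was at 1.12 from Grik1 and 0.382 from Grik5, and the gene of rank 5 for Grik1 was still at 0.305. These likenesses describe 12 libraries that share pools and fall into TRAP and input, and the log2 ratio of TRAP to input of Lhx6 was -1.72 beside -2.22 for Grik1.

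FosB proteins bind AP-1 motifs with Jun partners, so the 250 bases before the annotated start were searched on both strands for TGACTCA. The CRE motif TGACGTCA was searched separately, and neither motif contains the other. RefSeq promoters on GRCm38.p6 were matched for 4 of the 5 subunits, and not for Grik1. Neither motif was in any of the 4, while 4.46% of 32851 promoters held the AP-1 motif and 1.55% the CRE motif. This says only that these letters are not in these windows.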

How the data were processed

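The authors deposited raw read counts per gene for each library, after mapping reads to mm9 with TopHat and counting them with HTSeq-count against Gencode vM1, so reads with several alignments were set aside. DESeq2 is named in the submitters' processing notes. Versions and the strand setting are not given in the sources used here. A title without the word input was read as TRAP. The labels give 3 mice per pool in the sample source and 3 to 4 in the protocol, and replicates are separate pools.

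Tests on the counts used edgeR 4.0.16 under R 4.3.3 (filterByExpr, TMM, robust quasi-likelihood test), adjusted by the Benjamini-Hochberg method over all genes tested in each comparison. The SE was taken as the size of the log2 fold change divided by the square root of F, and intervals are 95%. CPM is TMM-normalised over the 12 libraries, and per-kb levels divide it by the union of annotated exons. Single values were compared by two-sided exact permutation tests of log2(CPM + 0.5). Stretches of 75 bases were aligned with minimap2 2.31. Scripts were tested on simulated data.

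The TRAP and input library of a pool carry the same number in the labels and are therefore paired. Across 13214 genes, their deviations from the group means correlated at 0.06 to 0.11. The fits reported have no block, since the study's methods state no design formula, and the block is an alternative. KO and WT pools with the same number are different mice, so a block has no pairing to follow in KO against WT. There, WT pool 1 and KO pool 4 have no counterpart of the same number and add nothing to the block's estimate.

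The members and gene lists were chosen with earlier results of these data known. Genes named are the 5 subunits, Neto1, Neto2, the 2 highest and 2 lowest partner genes in TRAP, the 2 genes most like each subunit, Fosb and members of the marker lists.

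Alternatives were RLE or total-count scaling, no filter, a mean of at least 10 counts, no mitochondrial genes, DESeq2 1.42.0, no robust dispersion, a pool block, 4 groups in 1 fit, leaving out each pool, pseudocounts of 0.1 and 2, and transcript length.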

Additional observations from a re-analysis of the deposited data

Results flagged for a closer look

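Grik2 was picked out for the difference of its KO effect between the fractions, which did not pass the adjusted test. The interaction was -0.95 on the log2 scale: KO was above WT in input by 0.63 and below WT in TRAP by a log2 difference of -0.32. It stood out at an unadjusted p of 0.00438 in edgeR's quasi-likelihood test, among 5 subunits and 12 partner genes looked at, and it failed the adjustment over 13214 genes (adjusted p = 1.00). The interaction kept its direction in each alternative, from -1.21 to -0.74 with a pool left out and -0.94 with the pools as a block. Groups of 3 libraries are too small for the search for outlying samples, so none was made.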

How the results depend on the processing

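Calls on the subunits rested on 3 libraries per group and, for Grik1 in TRAP, on 5 to 14 counts. Of 6 results past the threshold for Grik2, Grik3 and Grik4, 75 of 78 values under the alternatives kept direction and side. Grik1, which passed the filter only through input, is left out of this count. The 3 others were those of Grik4 over both genotypes with a pool left out (range -0.81 to -0.39). Without KO replicate 3, 4 in place of 3 subunits were called in KO, and 0 were called between genotypes under any alternative. The library scaling moved no subunit call.

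With a pool block, the 6 pools gave -0.56 for Grik4 and -0.08 for Grik5 over both genotypes, and the block changed no call on a subunit. In KO against WT, Grik3 in TRAP turned to 0.067 with the block, and the number of genes called in input went from 4 to 20. In that comparison the block pairs KO and WT pools of different mice.

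Directions of small, uncalled differences turned when a pool was left out, and the cause was not tested. For KO against WT, the ranges were -0.17 to 0.036 (Grik3) and -0.46 to 0.012 (Grik4) in TRAP, and -0.18 to 0.29 (Grik1) and -0.18 to 0.014 (Grik5) in input. For Grik5 in TRAP against input they were -0.19 to 0.11 in WT, -0.23 to 0.052 in KO and -0.13 to 0.025 over both. For the interaction they were -0.41 to 0.51 (Grik1), -0.041 to 0.26 (Grik3), -0.45 to 0.38 (Grik4) and -0.19 to 0.12 (Grik5), and with total counts Grik5 gave 0.019.

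Counts over all genes moved more. KO against WT in TRAP went from 8 to 41 without a filter, 18 in DESeq2 and 5 to 20 with a pool left out, and in input from 4 to 19, 8 and 1 to 5, with 7 for 4 groups in 1 fit. TRAP against input went from 3096 to 1871 without WT replicate 2 and 1289 without WT replicate 3, and in KO from 3626 to 1982 without KO replicate 4. The interaction went from 1 to 0 without robust dispersion and without WT replicates 1, 2 or 3 or KO replicates 2 or 3.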
